A study of Mus musculus with 5 samples.

Results

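The genes described here are 9 genes that mark the differentiation of macrophage precursors into osteoclasts, the bone-resorbing cells. They were taken by symbol from the 21878 genes of the expression table: the receptors Tnfrsf11a, Oscar and Calcr, the transcription factor Nfatc1, the fusion genes Dcstamp, Ocstamp and Atp6v0d2, and the resorption genes Ctsk and Acp5. RNA-Seq was done on bone marrow-derived macrophages (BMDMs) treated with lipopolysaccharide (LPS), in 3 Kdm6a-deficient samples from Kdm6aF/Y;Lyz2-Cre mice (numbered 1, 2 and 3) and 2 wild-type samples from Kdm6aF/Y mice (numbered 1 and 3). Kdm6a is an X-linked demethylase that removes the repressive H3K27me3 mark from histone H3. Both genotypes carried the floxed allele, and Lyz2-Cre deletes it in cells of the myeloid lineage. The study's methods for BMDMs give male mice of 10 weeks, macrophage colony-stimulating factor (M-CSF) at 10 ng/ml for 6 days, 3 days without it, and LPS at 100 ng/ml for 24 h, with no RANK ligand (RANKL) named, and do not say whether the sequenced cells followed each step. RNA samples were described as pooled, and no source says that the samples of a genotype came from separate mice, so each p-value reflects the spread among the samples at hand, and that spread may be technical.

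Osteoclasts form from cells of the macrophage lineage under M-CSF and RANKL. RANKL binds RANK, the product of Tnfrsf11a, which signals through TRAF6, NF-kB and the AP-1 factor c-Fos, while receptors coupled to ITAM adaptors, such as OSCAR, add a calcium signal, and both routes meet in NFATc1, which turns on the genes for fusion and resorption. The fused cell seals a patch of bone, pumps acid into it through the vacuolar proton ATPase (V-ATPase) and releases cathepsin K, which cuts collagen.

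The targeted gene came first as a check of the labels. Kdm6a had 2.81, 1.77 and 2.44 FPKM (mapped fragments scaled to transcript length and to library size) in Kdm6a-deficient BMDMs, against 3.72 and 2.91 FPKM in wild-type BMDMs. All 3 Kdm6a-deficient samples lay below both wild-type samples, but the difference of -0.38 on the log2 scale (SE 0.15) did not pass the test (limma, adjusted p = 0.268), and the part of the gene that Cre removes was not measured apart. Between 10641 and 10702 genes reached 1 FPKM in Kdm6a-deficient samples and between 10693 and 10769 in wild-type samples. Kdm6a-deficient sample 2 stood apart from the others of its genotype on the second principal component (32.5% of the variance). It was at 14.5, where Kdm6a-deficient samples 1 and 3 were at -9.22 and -4.31. The wild-type samples were apart on it as well, sample 1 at -7.68 and sample 3 at 6.67. The number of reads per sample is unknown, since the table gives FPKM per sample.

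To show the letters in front of genes whose levels are described below, the 300-base windows of Ctsk (which was lower in Kdm6a-deficient BMDMs), Oscar (an NFATc1 target in mouse osteoclasts that also lay lower) and Tnfrsf11a (which did not pass the test) were read from RefSeq on build GRCm38.p6. Each runs 5′ to 3′ on the gene's strand from 250 bases before the transcription start to 50 bases after it. The positions are chr3:95498960-95499259 on the plus strand for Ctsk, chr7:3616108-3616407 on the minus strand for Oscar and chr1:105780473-105780772 on the plus strand for Tnfrsf11a. Capitals mark matches, on either strand, to short core motifs of 4 factors used in osteoclasts.
Ctsk: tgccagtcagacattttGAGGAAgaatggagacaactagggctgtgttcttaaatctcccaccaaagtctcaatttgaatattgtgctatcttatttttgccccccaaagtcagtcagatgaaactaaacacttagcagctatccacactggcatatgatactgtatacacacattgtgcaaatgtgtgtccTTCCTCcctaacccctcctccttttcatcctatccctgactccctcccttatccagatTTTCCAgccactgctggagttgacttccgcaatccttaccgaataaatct
Oscar: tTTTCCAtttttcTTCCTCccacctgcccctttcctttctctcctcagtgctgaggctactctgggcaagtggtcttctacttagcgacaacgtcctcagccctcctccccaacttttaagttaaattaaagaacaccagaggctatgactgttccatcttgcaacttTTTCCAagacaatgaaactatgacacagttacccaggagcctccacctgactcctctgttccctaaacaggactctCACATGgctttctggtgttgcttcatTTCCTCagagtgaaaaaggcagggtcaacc
Tnfrsf11a: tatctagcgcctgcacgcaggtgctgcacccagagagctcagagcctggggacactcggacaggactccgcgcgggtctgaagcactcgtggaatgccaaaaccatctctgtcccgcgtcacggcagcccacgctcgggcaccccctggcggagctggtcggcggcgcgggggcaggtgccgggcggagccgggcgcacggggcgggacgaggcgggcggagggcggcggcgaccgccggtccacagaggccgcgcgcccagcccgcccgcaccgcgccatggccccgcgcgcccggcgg
The motifs were TGGAAA for NFAT, TGANTCA for AP-1, GAGGAA for PU.1 and CACATG for MITF, with N for any base, and a window of this length held them in 21.4%, 7.81%, 28.3% and 14.2% of all 32851 windows of the table. The Ctsk window held 1 NFAT and 2 PU.1 matches, and the Oscar window held 2 NFAT, 2 PU.1 and 1 MITF match. The Tnfrsf11a window, 76.7% G and C against 43.7% for Ctsk and 47.3% for Oscar, held no match to any of them. In all, 5 of the 9 genes had a window in the table (8 windows). The 2 windows of Calcr held no match, and of the 3 of Acp5 only the one starting at position 22130549 of chromosome 9 did, with 1 NFAT and 1 MITF match. A match describes letters only, and binding was not measured here.

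The 9 genes spanned the range of expression in these cultures. In 4 of the 5 samples their FPKM, which is per length of transcript, fell in the order Acp5, Ctsk, Atp6v0d2, Tnfrsf11a, Nfatc1, Dcstamp, Ocstamp, Oscar and Calcr, and in wild-type sample 3 Tnfrsf11a stood above Atp6v0d2. Acp5 lay at percentile 97.8 to 98.1 of the 21878 genes in Kdm6a-deficient samples and 97.8 to 97.9 in wild-type samples. Ctsk lay at percentile 90.2 to 90.6 in Kdm6a-deficient samples and 93.7 to 93.9 in wild-type samples. The genes for resorption enzymes were therefore abundant, whereas the receptor and fusion genes Calcr, Oscar and Ocstamp were near or under 1 FPKM. Neighbouring levels lay within 1 SD of each other for Atp6v0d2 and Tnfrsf11a in wild-type samples, and for Ocstamp and Oscar in Kdm6a-deficient samples.

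**Figure D1:**
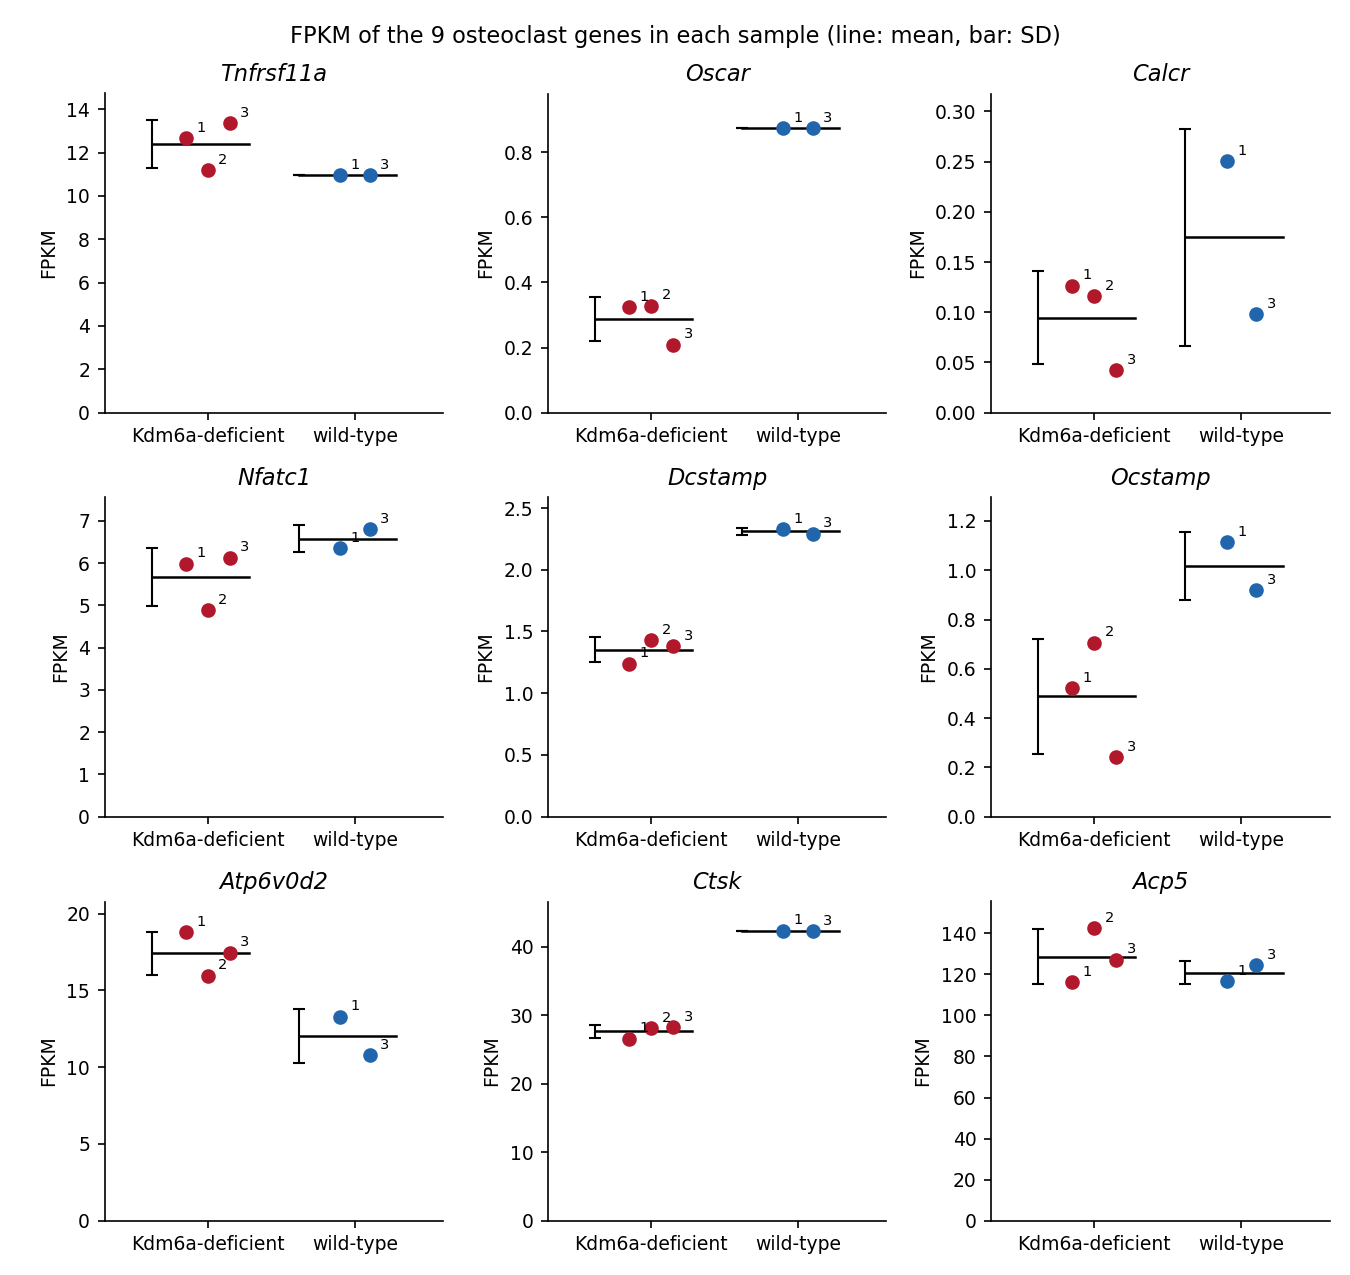
FPKM of each of the 9 genes (vertical axes, linear from 0) in each sample. Red points are the 3 Kdm6a-deficient samples and blue points the 2 wild-type samples, numbered as in the labels, with a line at the mean and a bar for the SD. Ctsk, Dcstamp and Oscar show wide gaps between the genotypes, with the Kdm6a-deficient samples below. For Atp6v0d2 the Kdm6a-deficient samples lie above, by a gap close to the spread within each genotype. The points of Acp5 and Calcr overlap.

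The comparison asked whether loss of Kdm6a went with other levels of these genes in LPS-treated macrophages. The test was limma on log2(FPKM + 1) over the 10893 genes with at least 1 FPKM in at least 2 samples, and a gene was called at an adjusted p under 0.05. Of the 9 genes, 6 passed the filter. Ctsk and Dcstamp fell in Kdm6a-deficient BMDMs, none rose, and 4 did not pass the test (Tnfrsf11a, Nfatc1, Atp6v0d2 and Acp5). Over all genes tested 2.18% were called lower and 1.73% higher, 3.91% in all. At an unadjusted p under 0.05, 1 of the 6 was higher (Atp6v0d2) and 2 lower, against 8.04% higher and 9.22% lower among all genes tested, and the fits without Kdm6a-deficient sample 2 or without wild-type sample 1 called Atp6v0d2 higher. Without a filter only Ctsk of the 9 was called lower, as were 0.599% of all genes. Oscar, Ocstamp and Calcr were under the filter and are described by their levels. The median log2 difference of the 6 was -0.05, against 0.0048 over all genes tested. Among all 9, Kdm6a-deficient samples lay wholly below wild-type samples for 5 genes and wholly above for 2, with overlap for Calcr and Acp5. Of the 13361 genes with 0.1 FPKM in at least 2 samples, 35.9% had genotypes that did not overlap, with Kdm6a-deficient samples below for 19.8% and above for 16%. The 9 genes were chosen with results of these data known, so these counts describe them and do not set them apart from other genes.

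Ctsk showed the clearest difference of the 9. It encodes cathepsin K, the cysteine protease with which osteoclasts digest bone collagen. Ctsk had 26.6, 28.2 and 28.3 FPKM in Kdm6a-deficient BMDMs, against 42.4 and 42.3 FPKM in wild-type BMDMs. The genotypes were well apart, with samples of the same genotype close together, although 2 wild-type samples say little about their spread. The mean was 27.7 ± 0.943 FPKM in Kdm6a-deficient samples (SD, n = 3) and 42.4 ± 0.0196 FPKM in wild-type samples (SD, n = 2), a ratio of 0.653. The log2 difference was -0.60 (SE 0.07, 95% interval -0.76 to -0.44), and it passed the test (limma, adjusted p = 0.00517). The call held in the fits without each other sample, at adjusted p of 0.0071 to 0.0438 (limma), but was lost without wild-type sample 3, where the difference was -0.60 (limma, adjusted p = 0.0673).

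The other cathepsin genes encode lysosomal proteases that macrophages use widely. None of the 10 others tested was called by limma, against 3.91% of all genes tested, with log2 differences of -0.03 to 0.31. Their smallest adjusted p was 0.153 (limma). At an unadjusted p under 0.05, 1 of them passed, against 8.04% higher and 9.22% lower among all genes tested. Ctsk made up 0.429%, 0.417% and 0.446% of the summed FPKM of the 11 cathepsin genes in Kdm6a-deficient samples, against 0.712% and 0.684% in wild-type samples (two-sided exact permutation p = 0.1). Ctsk was thus a small share of cathepsin RNA in both genotypes, and its share was lower in every Kdm6a-deficient sample. With 3 against 2 samples there are 10 splits, and 0.1 is the smallest two-sided p that a permutation can give.

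Acp5 encodes tartrate-resistant acid phosphatase, the enzyme behind the TRAP stain for osteoclasts, which macrophages also make. It had 116, 143 and 127 FPKM in Kdm6a-deficient BMDMs, against 117 and 125 FPKM in wild-type BMDMs. The genotypes overlapped. The means were 129 ± 13.3 FPKM in Kdm6a-deficient samples (SD, n = 3) and 121 ± 5.53 FPKM in wild-type samples (SD, n = 2), with a log2 difference of 0.09 (95% interval -0.14 to 0.32, limma, adjusted p = 0.734). The ratio of Ctsk to Acp5 FPKM was 0.229, 0.197 and 0.222 in Kdm6a-deficient samples, against 0.363 and 0.340 in wild-type samples (two-sided exact permutation p = 0.1). Ctsk thus lay lower relative to Acp5 in each Kdm6a-deficient sample.

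Of the 3 fusion genes, Dcstamp fell, Ocstamp was under the filter and Atp6v0d2 missed the threshold from the other side. Dcstamp encodes DC-STAMP, a membrane protein that mouse precursors need in order to fuse into multinucleated osteoclasts. Dcstamp had 1.24, 1.43 and 1.38 FPKM in Kdm6a-deficient BMDMs, against 2.33 and 2.29 FPKM in wild-type BMDMs. Every Kdm6a-deficient sample was far below both wild-type samples. The means were 1.35 ± 0.0999 FPKM in Kdm6a-deficient samples (SD, n = 3) and 2.31 ± 0.0274 FPKM in wild-type samples (SD, n = 2), so that Dcstamp was 1.71-fold lower in FPKM. The gap was smaller in the authors' mean normalized counts, at 56.4 in Kdm6a-deficient and 82.6 in wild-type BMDMs, from 164 and 258 reads, of which the wild-type ones include the library not analysed here. The log2 difference was -0.49 (SE 0.09, 95% interval -0.70 to -0.29, limma, adjusted p = 0.0270), and since a pseudocount of 1 FPKM understates changes of low genes, it was -0.73 with 0.1 FPKM. This call was less firm than that of Ctsk. It held without Kdm6a-deficient sample 2 (limma, adjusted p = 0.0295) and was lost without each other sample, with adjusted p of 0.0960 without Kdm6a-deficient sample 1, 0.116 without Kdm6a-deficient sample 3, 0.106 when wild-type sample 1 was left out and 0.170 when wild-type sample 3 was (limma), while the difference stayed between -0.52 and -0.46.

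Ocstamp encodes OC-STAMP, a related fusion protein induced by RANKL. It had 0.520, 0.706 and 0.242 FPKM in Kdm6a-deficient BMDMs, against 1.11 and 0.920 FPKM in wild-type BMDMs. The Kdm6a-deficient samples lay below the wild-type ones but varied widely among themselves. The ratio of means was 0.481, the two-sided exact permutation p was 0.2, and with a filter and a pseudocount of 0.1 FPKM, a setting chosen after seeing the data, the log2 difference was -1.003 (95% interval -1.83 to -0.17, limma, adjusted p = 0.211). Ocstamp therefore lay lower in these samples without passing a test.

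Atp6v0d2 encodes the d2 subunit of the V-ATPase, which mouse osteoclasts induce and need for fusion, whereas Atp6v0d1 encodes the d1 subunit that most cells make. Atp6v0d2 had 18.8, 15.96 and 17.4 FPKM in Kdm6a-deficient BMDMs, against 13.3 and 10.8 FPKM in wild-type BMDMs. Here the Kdm6a-deficient samples were the higher ones, opposite to Dcstamp, Ocstamp and Ctsk. The means were 17.4 ± 1.42 FPKM in Kdm6a-deficient samples (SD, n = 3) and 12.0 ± 1.78 FPKM in wild-type samples (SD, n = 2). The log2 difference of 0.50 (SE 0.11, 95% interval 0.24 to 0.76) missed the threshold (limma, adjusted p = 0.0553). Single samples decided on which side it fell: the difference was 0.56 without Kdm6a-deficient sample 2 (limma, adjusted p = 0.0435), 0.64 without wild-type sample 1 (limma, adjusted p = 0.0486) and 0.36 without wild-type sample 3 (limma, adjusted p = 0.392). Atp6v0d1 had 81.1, 96.2 and 84.6 FPKM in Kdm6a-deficient samples, against 71.7 and 79.0 FPKM in wild-type samples (log2 difference 0.21, limma, adjusted p = 0.318). The ratio of Atp6v0d2 to Atp6v0d1 overlapped between genotypes, at 0.232, 0.166 and 0.206 in Kdm6a-deficient samples and 0.185 and 0.136 in wild-type samples (two-sided exact permutation p = 0.3). The mean ratio of Atp6v0d2 to Ctsk was 0.630 ± 0.0709 in Kdm6a-deficient samples and 0.284 ± 0.0418 in wild-type samples (SD, two-sided exact permutation p = 0.1). Since Atp6v0d2 lay wholly above and Ctsk wholly below in Kdm6a-deficient samples, this ratio could not overlap between genotypes. Its p was thus fixed in advance and adds nothing to the levels of the 2 genes.

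**Figure D2:**
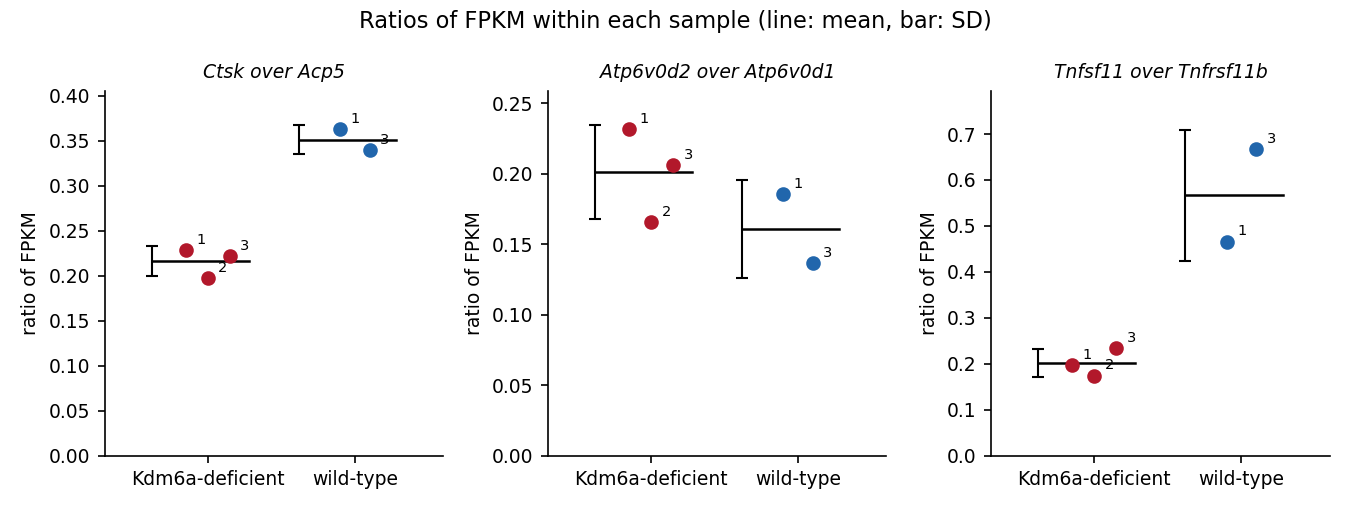
Ratios of FPKM within each sample (vertical axes, linear), with red points for the 3 Kdm6a-deficient samples, blue points for the 2 wild-type samples, a line at the mean and a bar for the SD. The ratio of Ctsk to Acp5 lies between 0.197 and 0.229 in Kdm6a-deficient samples and at 0.340 and 0.363 in wild-type samples, whereas the ratio of Atp6v0d2 to Atp6v0d1 overlaps, and that of Tnfsf11 to Tnfrsf11b is lower in Kdm6a-deficient samples.

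Of the receptors, RANK was well expressed and the others were scarce. Tnfrsf11a, the RANK gene, had 12.7, 11.2 and 13.4 FPKM in Kdm6a-deficient BMDMs, against 10.98 and 10.98 FPKM in wild-type BMDMs. The Kdm6a-deficient samples lay slightly above, but the log2 difference of 0.16 (SE 0.09, 95% interval -0.05 to 0.37) did not pass the test (limma, adjusted p = 0.442). Its levels came close to touching, with Kdm6a-deficient sample 2 just above the wild-type samples.

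Oscar encodes the osteoclast-associated receptor, which binds collagen and signals through the ITAM adaptor FcRgamma. It had 0.324, 0.329 and 0.209 FPKM in Kdm6a-deficient BMDMs, against 0.874 and 0.873 FPKM in wild-type BMDMs. All Kdm6a-deficient samples lay far below both wild-type samples, with a ratio of means of 0.329 (two-sided exact permutation p = 0.1). Since Oscar did not reach 1 FPKM, it was outside the test. With a filter and a pseudocount of 0.1 FPKM, the setting chosen after seeing the data, the log2 difference was -1.35 (SE 0.21, 95% interval -1.85 to -0.84) and passed the test (limma, adjusted p = 0.0215, where 1.96% of 13361 genes were called lower). Without any filter and with a pseudocount of 1 FPKM it was -0.54 and did not pass (limma, adjusted p = 0.0645). The call of Oscar thus depended on how low values were treated. The reads behind it were few. The authors' mean normalized counts of 8.94 in Kdm6a-deficient and 30.8 in wild-type BMDMs correspond to 26 reads over 3 Kdm6a-deficient libraries (exact Poisson 95% interval 17.0 to 38.1) and 97 reads over 3 wild-type libraries (78.7 to 118), of which 1 is not analysed here, and these intervals cover counting error only.

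Calcr encodes the calcitonin receptor, through which calcitonin stops resorption by mature osteoclasts. It had 0.126, 0.116 and 0.0421 FPKM in Kdm6a-deficient BMDMs, against 0.251 and 0.0982 FPKM in wild-type BMDMs. The genotypes overlapped, wild-type sample 3 lying below Kdm6a-deficient samples 1 and 2 (ratio of means 0.543, two-sided exact permutation p = 0.4). The levels rest on 22 reads over the 3 Kdm6a-deficient libraries (exact Poisson 95% interval 13.8 to 33.3) and 56 reads over the 3 wild-type libraries (42.3 to 72.7) of the authors' means, where the wild-type ones include the library not analysed here. These intervals do not overlap, and they leave out the spread between samples, in which the 2 wild-type samples differed widely.

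Nfatc1 encodes the transcription factor that drives the osteoclast programme. It had 5.99, 4.90 and 6.14 FPKM in Kdm6a-deficient BMDMs, against 6.36 and 6.81 FPKM in wild-type BMDMs. The Kdm6a-deficient samples lay just below, sample 3 being nearest to the wild-type ones. The log2 difference of -0.19 (SE 0.11, 95% interval -0.44 to 0.06) did not pass the test (limma, adjusted p = 0.439). Kdm6a-deficient sample 2, which stood apart on the second component, had the lowest Nfatc1, Tnfrsf11a and Atp6v0d2 of its genotype. It also had the highest Acp5, Dcstamp, Ocstamp and Oscar of its genotype.

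**Figure D3:**
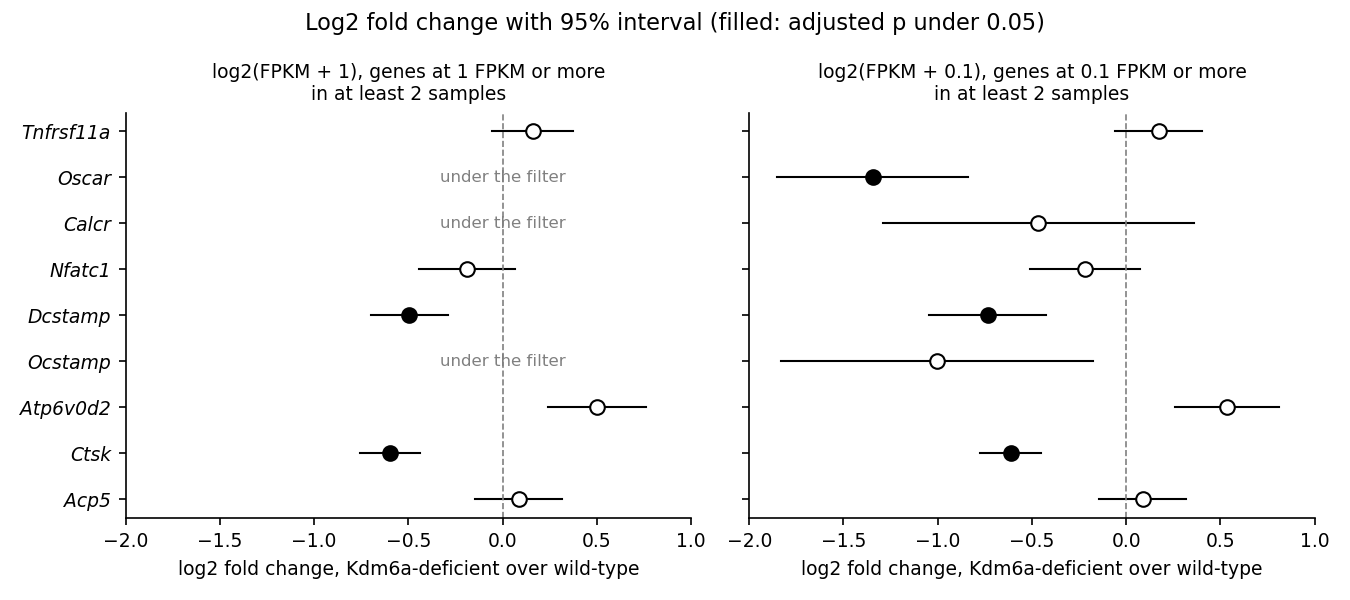
Log2 difference, Kdm6a-deficient minus wild-type (horizontal axis), of the 9 genes with 95% intervals, on the log2(FPKM + 1) scale of the test (left) and with a filter and pseudocount of 0.1 FPKM (right). Filled points passed the test. On the left the intervals of Ctsk and Dcstamp lie below 0 and that of Atp6v0d2 above 0, and Oscar, Ocstamp and Calcr are marked as under the filter, while on the right Oscar lies at -1.35 and is filled.

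**Figure D4:**
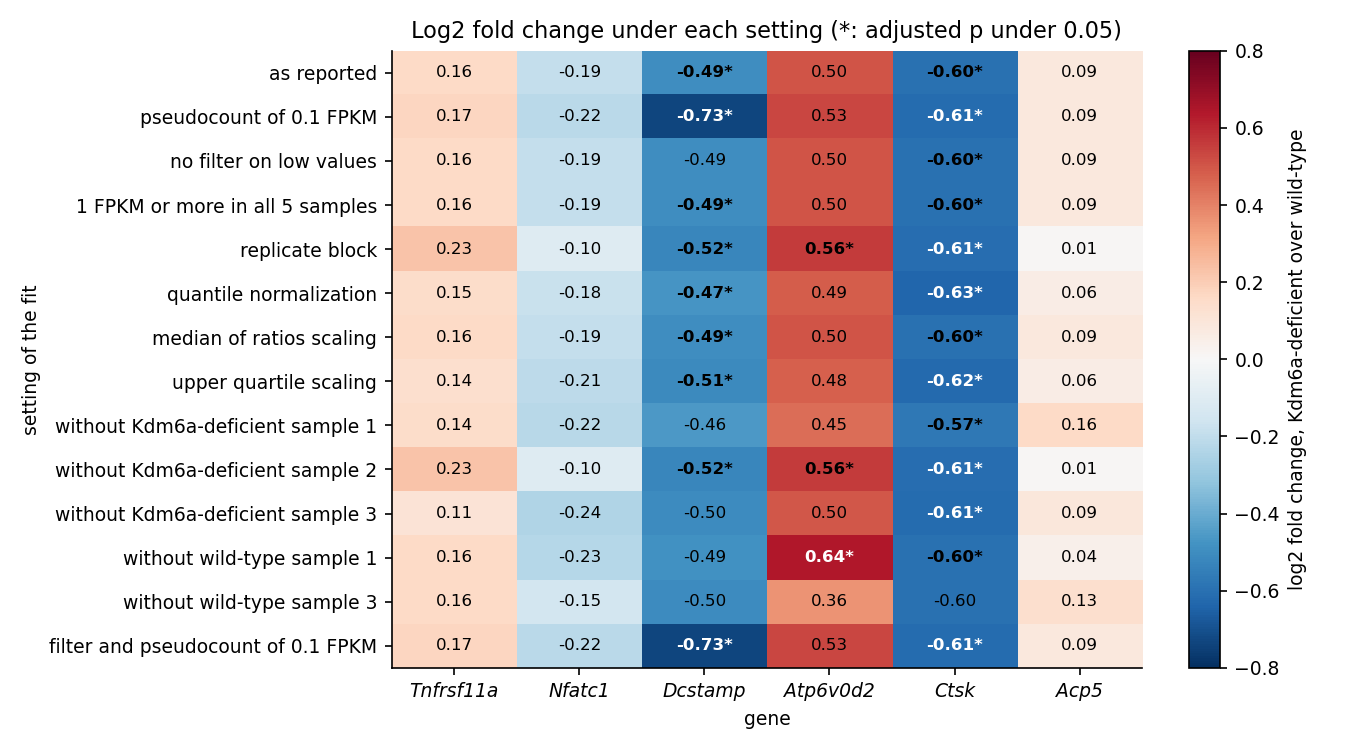
Log2 difference, Kdm6a-deficient minus wild-type, of the 6 tested genes (columns) under each setting of the analysis (listed down the left side), from the fit as reported to the fits without 1 sample, with a star on called values and colour for size and direction. Ctsk keeps its call in all fits but the one without wild-type sample 3, and no gene changes sign.

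The genes around these 9 in the pathway were taken from 11 lists of 155 further genes. Of the 142 tested, 8 rose and 6 fell in Kdm6a-deficient BMDMs and 128 did not pass the test, which is 9.86% called, against 3.91% of all genes tested, with a median log2 difference of 0.05. These lists too were drawn up with results of these data known. Of the 14 calls, 12 depended on single samples. Id1 and Mmp12 kept theirs whichever sample was left out, and none was lost without Kdm6a-deficient sample 2. All 12 others were lost without Kdm6a-deficient sample 3 (limma, adjusted p of 0.0541 to 0.190) and likewise in the fit that left out wild-type sample 3 (limma, adjusted p of 0.0821 to 0.319), in fits that called 117 and 81 genes in all against 426 with every sample. Without Kdm6a-deficient sample 1, 8 were lost (Atp6v0a1, Atp6v0c, Cd36, Col1a1, Fosl2, Syk, Tnfrsf11b and Tnfsf11, limma, adjusted p of 0.0584 to 0.119), and without wild-type sample 1, 8 were lost (Atp6v0a1, Atp6v0c, Col1a1, Col1a2, Cxcl12, Fosl2, Syk and Tnfrsf11b, limma, adjusted p of 0.0651 to 0.210). With no filter on low values 11 of the 14, Id1 and Id2 among them, were lost (limma, adjusted p of 0.0667 to 0.2499), and Atp6v0a1, Cxcl12 and Mmp12 were still called.

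**Figure D5:**
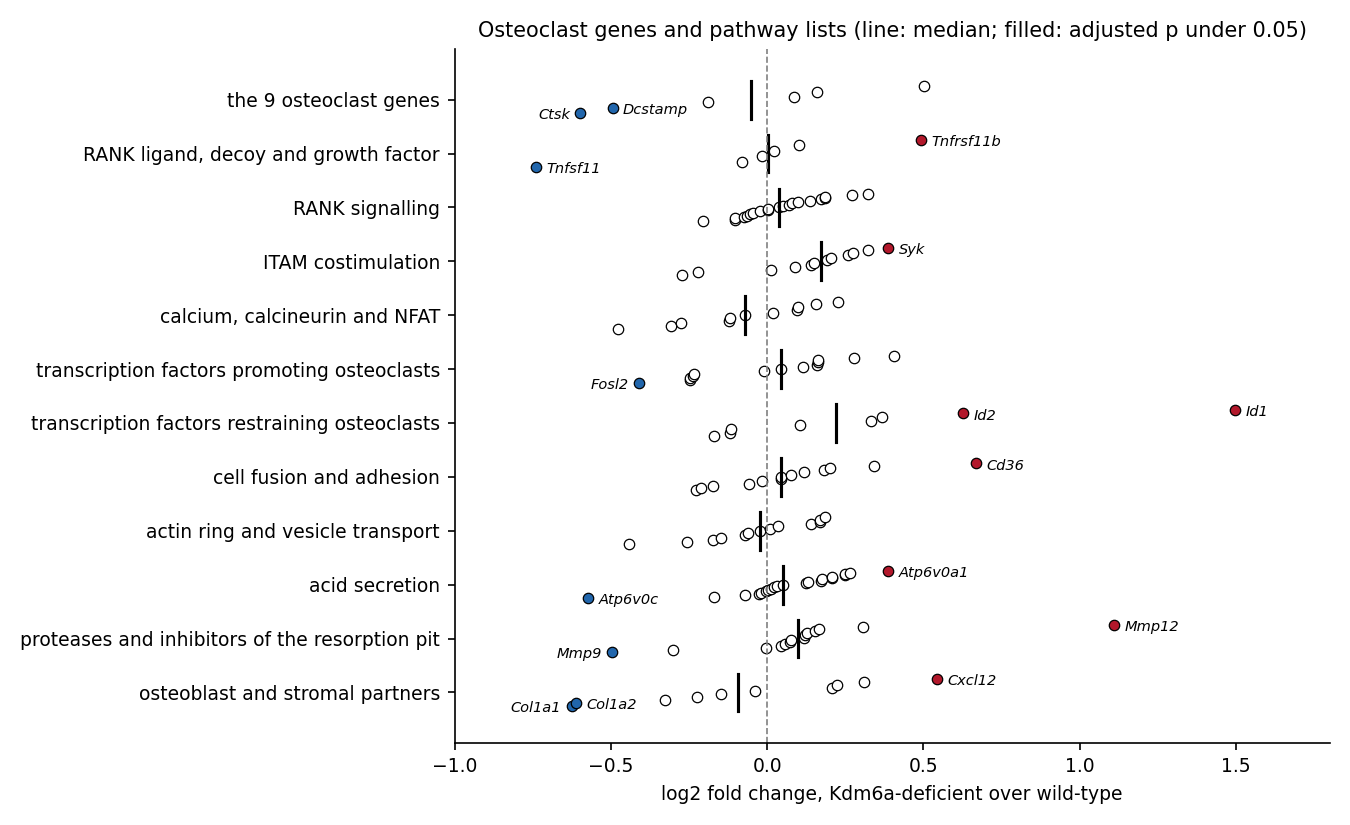
Log2 difference, Kdm6a-deficient over wild-type (horizontal axis), of each tested gene in the 9 osteoclast genes and in 11 pathway lists. Filled and named points passed the test (red higher, blue lower in Kdm6a-deficient BMDMs), open points did not, and vertical lines are list medians. Id1 at 1.497 and Mmp12 at 1.11 lie farthest to the right.

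Of the 6 genes for the ligand, its decoy and the growth factors, RANKL fell and its decoy rose. Among all genes tested, 2.18% were called lower and 1.73% higher. Tnfsf11, the RANKL gene, had 2.85, 2.19 and 3.22 FPKM in Kdm6a-deficient BMDMs, against 4.60 and 5.93 FPKM in wild-type BMDMs (log2 difference -0.74, limma, adjusted p = 0.0410). Tnfrsf11b, which encodes osteoprotegerin, the soluble decoy that binds RANKL, had 14.4, 12.6 and 13.8 FPKM in Kdm6a-deficient BMDMs, against 9.87 and 8.89 FPKM in wild-type BMDMs (log2 difference 0.49, limma, adjusted p = 0.0306). Within samples the ratio of RANKL to osteoprotegerin RNA was 0.197, 0.174 and 0.233 in Kdm6a-deficient BMDMs, against 0.466 and 0.667 in wild-type BMDMs (two-sided exact permutation p = 0.1). Tnfsf11 lay wholly below and Tnfrsf11b wholly above in Kdm6a-deficient samples. That ratio therefore had to be lower in every Kdm6a-deficient sample, and its p adds nothing to the calls of these genes. Which cells of the cultures made these RNAs was not measured. In the fit without wild-type sample 3, neither gene was called (limma, adjusted p = 0.269 for each). Csf1r, the M-CSF receptor, had a log2 difference of 0.10 (limma, adjusted p = 0.572).

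Syk and Fosl2 were the only calls among the signalling steps and the factors that promote osteoclasts. Over all genes tested 3.91% were called, and at an unadjusted p under 0.05, 8.04% were higher and 9.22% lower. Of the 21 tested genes of RANK signalling, from adaptors to NF-kB, none was called by limma, 2 were higher and none lower at an unadjusted p under 0.05, and 0 were called among 11 tested genes of calcium, calcineurin and NFAT signalling, where 2 were lower at an unadjusted p under 0.05. Among 12 genes of ITAM costimulation, Syk, the kinase that docks on phosphorylated ITAMs, rose to 39.5 ± 1.90 FPKM in Kdm6a-deficient BMDMs (SD, n = 3), against 29.9 ± 1.501 FPKM in wild-type BMDMs (SD, n = 2; limma, adjusted p = 0.0383). The call of Syk was also lost with quantile normalization (limma, adjusted p = 0.0549), with upper quartile scaling (limma, adjusted p = 0.0532) and, at 0.185, without wild-type sample 3. Among 13 transcription factors that promote osteoclasts, Fosl2, a subunit of AP-1, fell to 25.9 ± 1.62 FPKM in Kdm6a-deficient BMDMs, against 34.7 ± 1.07 FPKM in wild-type BMDMs (SD, limma, adjusted p = 0.0364, and 0.313 without wild-type sample 3). Fosl2 was not alone in its list at an unadjusted p under 0.05 (limma), where 5 of the 13 were lower and 2 higher. In the ITAM list 4 of 12 were higher and 1 lower at that threshold. Spi1, the PU.1 gene, had a log2 difference of 0.41 that did not pass (limma, adjusted p = 0.112).

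Among 8 tested transcription factors that restrain osteoclasts, Id1 and Id2 rose and none fell. At an unadjusted p under 0.05 (limma), 3 of the 8 were higher and none lower. Among all genes tested 1.73% were called higher, and 8.04% were higher at the unadjusted threshold. Id proteins bind basic helix-loop-helix factors and keep them off DNA, and in mouse precursors they hold back osteoclast formation. Id1 had 9.12, 11.8 and 11.4 FPKM in Kdm6a-deficient BMDMs, against 2.85 and 3.49 FPKM in wild-type BMDMs (log2 difference 1.497, limma, adjusted p = 0.00208). Id2 had 88.4, 77.4 and 80.2 FPKM in Kdm6a-deficient BMDMs, against 52.9 and 52.5 FPKM in wild-type BMDMs (log2 difference 0.63, limma, adjusted p = 0.00760, and 0.0821 without wild-type sample 3). The genotypes were far apart for both genes. Id3 lay in the same direction at 0.33 without passing (limma, adjusted p = 0.228), and Irf8, a repressor of Nfatc1 in mouse precursors, was at -0.17 (limma, adjusted p = 0.312).

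In the groups for fusion, acid and proteolysis, only the acid and protease lists had a call in each direction. The share called over all genes tested was 3.91%. Of 13 fusion and adhesion genes, Cd36, a scavenger receptor, rose to 264 ± 23.97 FPKM in Kdm6a-deficient BMDMs, against 166 ± 24.05 FPKM in wild-type BMDMs (SD, limma, adjusted p = 0.0260), a call lost with quantile normalization (limma, adjusted p = 0.0840) and without wild-type sample 3 (limma, adjusted p = 0.220). Itgb3, the beta3 integrin subunit of the sealing zone, had a log2 difference of -0.21 (limma, adjusted p = 0.335). Of 21 acid secretion genes, Atp6v0a1, an a subunit of the V-ATPase, rose by 0.39 on the log2 scale (limma, adjusted p = 0.0284, and 0.221 without wild-type sample 3) and Atp6v0c, its proteolipid subunit, fell by 0.57 (limma, adjusted p = 0.0462, and 0.319 without that sample), although reads of Atp6v0c could be shared with near-identical copies. None of 13 genes of the actin ring and vesicle transport was called by limma, with 1 higher and 2 lower at an unadjusted p under 0.05. At that threshold 8.04% of all genes tested were higher and 9.22% lower. The fusion list had 3 higher and 1 lower there, the acid list 4 and 1, and the protease list 2 and 2. Of 14 proteases and inhibitors, Mmp12 and Mmp9 moved in opposite directions. Mmp12, macrophage elastase, had 184, 166 and 178 FPKM in Kdm6a-deficient BMDMs, against 82.5 and 79.5 FPKM in wild-type BMDMs (log2 difference 1.11, limma, adjusted p = 0.000746). Mmp9, a gelatinase abundant in osteoclasts, had 34.7, 37.1 and 34.4 FPKM in Kdm6a-deficient BMDMs, against 48.5 and 52.3 FPKM in wild-type BMDMs (log2 difference -0.50, limma, adjusted p = 0.0138, and 0.169 without wild-type sample 3).

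Markers of other cells in the cultures were measured beside these genes. In bulk RNA, fewer cells of a type and less RNA per cell cannot be told apart. The counts below stand beside 1.73% called higher and 2.18% called lower over all genes tested. At an unadjusted p under 0.05 (limma) these shares were 8.04% higher and 9.22% lower. Macrophage markers were read first, and their detection does not show that the cultures held macrophages alone. The 6 macrophage genes were all detected, with a summed level of 1898 to 1963 FPKM in Kdm6a-deficient samples and 1738 to 1780 FPKM in wild-type samples, and none was called by limma, although 2 were higher at an unadjusted p under 0.05. Of 12 stromal genes, 10 were tested, 1 rose (Cxcl12) and 2 fell (Col1a1 and Col1a2), with sums of 2365 to 2386 FPKM in Kdm6a-deficient samples and 3045 to 3239 FPKM in wild-type samples, and none was at 0 in all samples. At an unadjusted p under 0.05, 3 of the 10 were higher and 4 lower, so the list did not lie on one side. In each genotype the stromal sums over 12 genes were above those of the 6 macrophage genes. Most of the stromal sum came from Col1a1, Col1a2 and Col3a1, the last at means of 398 FPKM in Kdm6a-deficient and 409 FPKM in wild-type samples. Sums over unlike lists do not measure how much of the RNA came from each cell type. The lower sum in Kdm6a-deficient samples went with the collagen I genes, at means of 682 FPKM for Col1a1 and 867 FPKM for Col1a2 in Kdm6a-deficient samples, against 1052 and 1326 FPKM in wild-type samples, while Alpl, the alkaline phosphatase gene, had a log2 difference of 0.31 (limma, adjusted p = 0.0867). Col1a1 had a log2 difference of -0.63 (limma, adjusted p = 0.0178), Col1a2 of -0.61 (limma, adjusted p = 0.0116) and Cxcl12 of 0.54 (limma, adjusted p = 0.00804), and none of the 3 was called without Kdm6a-deficient sample 3 (limma, adjusted p of 0.0685 to 0.122), wild-type sample 1 (0.0651 to 0.0702) or wild-type sample 3 (0.0974 to 0.239). All 5 endothelial genes lay wholly lower in Kdm6a-deficient samples, against 19.8% of the 13361 genes with 0.1 FPKM in at least 2 samples. Of the 5, 3 were tested, 1 fell (Cdh5) and 3 were lower at an unadjusted p under 0.05. Their sums were 10.4 to 12.2 FPKM in Kdm6a-deficient samples and 19.4 to 19.6 FPKM in wild-type samples. Cdh5, which encodes VE-cadherin, had a log2 difference of -0.95 (limma, adjusted p = 0.00275) and was called whichever sample was left out (limma, adjusted p of 0.00708 to 0.0270). Of the 4 monocyte genes 3 were tested and 2 rose (Ly6c2 and Plac8), with sums of 66.1 to 73.1 FPKM in Kdm6a-deficient samples and 49.3 to 53.4 FPKM in wild-type samples. Neither call was firm: Plac8 was called in no fit that left out a sample (limma, adjusted p of 0.0528 to 0.273), and Ly6c2 only without Kdm6a-deficient sample 1 or 2 (limma, adjusted p of 0.0453 to 0.190 over the 5 fits). The 7 neutrophil genes summed to 1704 to 2246 FPKM in Kdm6a-deficient samples and 1696 to 1788 FPKM in wild-type samples. Dendritic genes summed to 0.427 to 0.524 FPKM in Kdm6a-deficient samples and 0.579 to 0.605 FPKM in wild-type samples, with 2 at 0 in all samples. T or NK genes summed to 1.34 to 2.14 FPKM in Kdm6a-deficient samples and 0.930 to 1.16 FPKM in wild-type samples, and B cell genes to 2.38 to 3.56 FPKM in Kdm6a-deficient samples and 3.50 to 3.90 FPKM in wild-type samples. The part of these cells in the levels of the osteoclast genes was not tested.

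Other genes had profiles close to those of the called genes. Among the 7115 tested genes whose mean reached 5 FPKM, closeness was the distance between log2 profiles over the 5 samples. The nearest to Dcstamp were Bcat1, Emp2 and Irf2bpl at distances of 0.0332, 0.0485 and 0.0679, and the nearest to Ctsk were Slc39a4, Rnps1 and Tsku at 0.0569, 0.0575 and 0.0738. Slc39a4, a zinc transporter gene, had 7.05, 7.81 and 7.90 FPKM in Kdm6a-deficient BMDMs, against 12.1 and 12.3 FPKM in wild-type BMDMs.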

How the data were processed

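RNA-Seq values of 3 Kdm6a-deficient and 2 wild-type samples of LPS-treated BMDMs were used, grouped by the genotype in their labels. The authors used TopHat for mapping and Cufflinks for FPKM, and the deposited table holds these FPKM for each sample. It also holds a signal value for each genotype, which the authors computed as the mean of DESeq normalized counts. A fold change, a p-value and an adjusted p-value of the authors' own comparison were not used. Bowtie 0.12.2 and the builds mm8 and mm9 stand in the submitters' processing notes without a role, and for other tools the version is not given in the sources used here. The labels name a TruSeq kit and the paper a total RNA kit. The group means moved in steps of 1 read, of 0.333 to 0.352 in the Kdm6a-deficient and 0.306 to 0.346 in the wild-type mean, with 3 step sizes each, so that the wild-type mean drew on a further library that is not analysed here. Reads were called whole within 1e-08.

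The test was limma 3.58.1 (R 4.3.3) with a trend on log2(FPKM + 1), fitted to the 5 samples together with genotype as the only term. A gene entered if 2 samples or more reached 1 FPKM, and was called if its p, adjusted by Benjamini-Hochberg, was under 0.05. This scale understates changes of low genes. Standard errors are limma's moderated ones. Symbols turned into dates were restored for 27 genes. Exact permutation tests went over every split of the samples, and the Poisson intervals used scipy 1.17.1. The 9 genes, the pathway and marker lists and the rule for named genes (the 9, Kdm6a, Atp6v0d1, and up to 4 genes per list with the smallest adjusted p, with up to 3 nearest profiles for a called gene) were chosen with earlier results of these data known. There were 13 alternatives, among them other pseudocounts, filters, scalings, a replicate block and leaving out each sample, and 1 (filter and pseudocount of 0.1 FPKM) was chosen after seeing the data.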

Additional observations from a re-analysis of the deposited data

How the results depend on the processing

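For the 9 osteoclast genes, 71 of 81 values under the alternatives kept their direction and their side of the threshold, 6 lost and 4 gained a call, and none changed sign. For 68 other named genes, 751 of 880 values kept both, 86 lost a call, 40 gained one and 3 changed sign. Ms4a1, a B cell marker at -0.0042, turned to 0.027 with a replicate block and 0.034 with quantile normalization, and ran between -0.052 and 0.027 without single samples. It was not called in any of these fits, and the cause was not tested. Without a filter, 75 genes were higher and 131 lower (188 and 238 as reported), with 1 of the 9 osteoclast genes lower, and 4 pathway genes higher and 0 lower at an adjusted p under 0.05 in limma (8 and 6 as reported). More genes are tested in that fit, and the unadjusted p of each tested osteoclast gene was larger too. It went from 0.00068 to 0.0015 for Dcstamp and from 0.0024 to 0.017 for Atp6v0d2 (limma). With a replicate block, 436 genes were higher and 560 lower, with 1 of the 9 higher (Atp6v0d2 at 0.56, limma, adjusted p = 0.0120), and 16 pathway genes higher and 13 lower. Only Kdm6a-deficient sample 2 has the number 2, so the block takes up that sample. The log2 differences of that fit therefore equal those without Kdm6a-deficient sample 2. The genotypes share only the numbers 1 and 3, and the numbers were not taken as a pairing. In their deviations from the group means the samples numbered 1 correlated at 0.432 and those numbered 3 at -0.144. Kdm6a-deficient sample 2 and wild-type sample 3 correlated at 0.408. With 2 wild-type samples their deviations are exact opposites, so these correlations cannot decide whether the numbers pair samples. Leaving out single samples gave 46 to 281 genes higher and 35 to 397 lower, 0 to 1 of the 9 higher and 0 to 2 lower, and 2 to 10 pathway genes higher and 0 to 10 lower. Such fits leave 1 wild-type sample at times, whose spread is then assumed to be that of the others. The split of higher against lower calls moved most without wild-type sample 1, to 69.4% higher against 44.1%. Other scalings put the median log2 difference of all genes between -0.017 and 0.0047, against 0.0048. Depth per sample is unknown, which limits Oscar, Ocstamp and Calcr most.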
